A study of Mus musculus with 19 samples.

Results

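The transcripts of 10 endothelial genes were followed across primary mouse sarcomas that grew with and without an adaptive immune system. The genes were taken by symbol, by a rule that uses no threshold on measured values but was set with earlier results of these data known, as 10 of the 48795 gene identifiers in the expression table, and they comprise 3 junction and adhesion proteins (Pecam1, Cdh5, Esam), 3 endothelial glycoproteins (Emcn, Eng, Vwf), the Tie receptors (Tie1, Tek) and the angiopoietins (Angpt1, Angpt2). All 10 were found once and had a mean log2 value above 0, the filter used for testing. The tumors were 11 from Rag2-/- mice, which lack mature T and B lymphocytes, and 8 from Rag2+/- littermates, which have them. In all mice, male or female, an adenovirus encoding Cas9 and a guide RNA against p53 was injected into the gastrocnemius muscle, followed by 300 µg of the carcinogen methylcholanthrene (MCA). The methods of the study state an age of 6 to 10 weeks for its primary sarcomas made with another adenovirus, and none for these mice. The mice received no treatment, and each library was made from bulk RNA of 1 whole tumor harvested at a volume of 70 to 150 mm3, so the muscle in which the tumor grew and every cell type of the tumor contributed to each value.

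Blood vessels are lined by endothelial cells, which are joined to each other by VE-cadherin, the product of Cdh5, together with PECAM1 and ESAM. The Tie system controls whether these vessels are quiet or remodelling. Angiopoietin 1, made largely by mesenchymal cells and pericytes around the vessel, activates the receptor TIE2 (encoded by Tek) and stabilizes the vessel, whereas angiopoietin 2, released by activated endothelial cells, can oppose it, and TIE1 is a related receptor with no firmly established ligand of its own that modulates TIE2 signalling.

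Promoter sequence was at hand for 4 of the 10 genes (Eng, Emcn, Tek and Tie1) in the RefSeq table of build GRCm38.p6. The sequences of Tek, Eng and Emcn are shown as a receptor and 2 glycoproteins among the members. Over all 19 tumors Tek and Eng were correlated, which no longer passed without S46, and Emcn was not detectably related to either. The 250 bases upstream of the RefSeq start are written 5′ to 3′ on the strand of the gene, and the capitals mark GGAA or its reverse complement TTCC, the core letters bound by ETS factors, a family with well-known roles in endothelial genes. The regions are chr4:94739039-94739288 on the plus strand for Tek, chr2:32646345-32646594 on the plus strand for Eng and chr3:137340828-137341077 on the plus strand for Emcn, whose last bases reach into the start of the GENCODE gene.
Tek: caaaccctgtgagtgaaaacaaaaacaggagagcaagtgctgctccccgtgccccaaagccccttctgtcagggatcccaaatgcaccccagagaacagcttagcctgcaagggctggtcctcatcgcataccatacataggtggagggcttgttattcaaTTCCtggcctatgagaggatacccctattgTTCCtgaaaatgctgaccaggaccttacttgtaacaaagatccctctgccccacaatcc
Eng: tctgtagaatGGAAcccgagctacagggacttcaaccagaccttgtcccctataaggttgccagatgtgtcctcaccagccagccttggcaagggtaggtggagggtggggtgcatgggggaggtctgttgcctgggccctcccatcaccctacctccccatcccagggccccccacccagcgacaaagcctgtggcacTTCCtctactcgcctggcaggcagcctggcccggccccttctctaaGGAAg
Emcn: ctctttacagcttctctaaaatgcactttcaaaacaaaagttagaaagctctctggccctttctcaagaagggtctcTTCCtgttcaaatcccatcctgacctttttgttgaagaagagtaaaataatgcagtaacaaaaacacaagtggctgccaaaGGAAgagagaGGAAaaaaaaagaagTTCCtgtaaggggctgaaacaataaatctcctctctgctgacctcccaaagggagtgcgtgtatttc

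On both strands, GGAA occurred 2 times upstream of Tek, 3 times upstream of Eng, 4 times upstream of Emcn and 7 times upstream of Tie1. At least 1 occurrence was present in 93.4% of the 32851 promoters of the table, with a median of 3, so its presence does not set these genes apart. The longer CAGGAA, which contains GGAA, occurred 2 times upstream of Tek and of Emcn, 1 time upstream of Tie1 and 0 times upstream of Eng, and in 25.7% of all promoters. The letters CCGGAA, held by 12% of all promoters, were not found on either strand of any of the 4 windows. Neither were the GATA-type letters AGATAA, held by 9.99% of promoters. The same was true of the TATA-type letters TATAAA, held by 12.4% of promoters.

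The values are log2 of upper-quartile normalized FPKM (fragments per kilobase of transcript and per sequenced fragment, scaled so that the upper quartile of each library is alike) with 0.1 added, and genes with no reads sit at the floor, log2 of 0.1. The steps between low values gave an estimated depth, in units of 1e6 fragments, of 24.6 to 33.4 in 18 tumors and of 5.18 in the Rag2-/- tumor S41. The estimated fragments behind a member ranged from 49 to 7294 per tumor, and outside S41 from 113 upward, with the fewest in S41. Rag2 itself, measured over the whole gene and therefore no check of a deleted segment, ran from −2.05 to 0.36 in the Rag2-/- tumors and from −2.33 to −0.57 in the Rag2+/- tumors. The T cell receptor component Cd3e was at the floor in all 11 Rag2-/- tumors and between −0.61 and 2.90 in the 8 Rag2+/- tumors, which separates the genotypes as labelled.

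The Rag2-/- tumor S46 stood apart for these genes. It held the highest Rag2-/- value of 9 of the 10 members and of 8 of the 8 members other than the angiopoietins, whereas it was the highest Rag2-/- tumor for 19.3% of all 12826 genes tested. S46 also had the highest mean of the macrophage markers (8.20, against 6.48 to 7.21 in the other Rag2-/- tumors), of the pericyte markers (3.80) and of the adipocyte markers (8.31) of the Rag2-/- tumors. The part of these cells in its endothelial values was not tested. Member differences and other results that S46 moves are therefore also given without it, a choice made after its values were seen, and in the 15 tumors (8 Rag2-/- and 7 Rag2+/-) that the source data of the study list, which leave out S41, S46, S51 and S56.

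All 10 genes were above the floor in every tumor, from 0.48 for Vwf in S43 to 6.26 for Pecam1 in S46. On this per-length scale the mean level over the 19 tumors was 4.91 for Cdh5, 4.87 for Pecam1 and 4.74 for Eng. These neighbours were not separable, since Cdh5 was above Pecam1 in 10 of 19 tumors and Pecam1 above Eng in 13 of 19. Esam (3.83) was below Eng in all 19 tumors and above Emcn (3.26) in 18 of them. Emcn and Tie1 (3.17) differed by 0.09 ± 0.43 (SD, n = 19) and so were alike in level within the spread. The lowest level was shared by Vwf (2.13), Tek (2.10), Angpt2 (1.94) and Angpt1 (1.91), whose adjacent differences of 0.03 to 0.16 were far below their spread of 0.59 to 0.72. Tie1 was above Vwf in 17 of 19 tumors. TIE1 transcripts were thus present at a higher level than those of TIE2, by 1.07 ± 0.29 on the log2 scale in Rag2-/- tumors (SD, n = 11) and 1.08 ± 0.59 in Rag2+/- tumors (SD, n = 8).

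**Figure D1:**
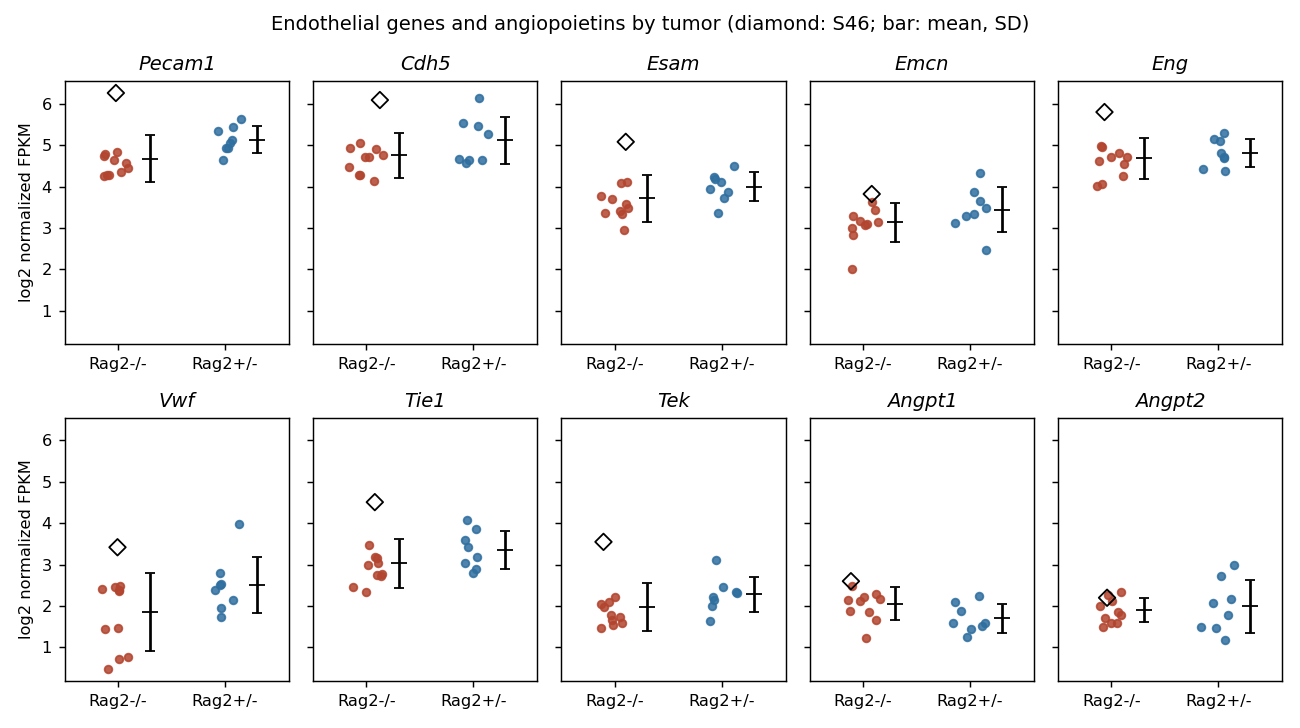
Each panel plots the log2 normalized FPKM of 1 gene, with points for the 11 Rag2-/- tumors (red, left) and the 8 Rag2+/- tumors (blue, right) and a bar for the mean and SD. The open diamond is S46, which lies above the other Rag2-/- tumors for every gene but Angpt2, most clearly for Pecam1 (6.26, against 4.84 for the next tumor).

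Whether the lack of lymphocytes went with a different endothelial transcript level was asked first. In the Rag2-/- tumors, 9 of the 10 members had a lower mean and Angpt1 a higher one, with a median difference of −0.32 on the log2 scale, against 0.06 for all genes tested and a difference below 0 in 43.8% of them. None of the 10 passed limma at a Benjamini-Hochberg adjusted p of 0.05 over all genes (0 of 10, adjusted p 0.305 to 0.828), where 0.0312% of all genes passed. At an unadjusted p under 0.05, 1 of the 10 (Pecam1, lower in Rag2-/-) passed in limma, beside 16.3% of all genes in either direction and 9.56% in that direction. The groups overlapped for all 10 members, as they did for all but 0.0156% of genes. In bulk tumors, fewer endothelial cells and less RNA per endothelial cell cannot be told apart.

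Without S46, 0 of 10 members passed the adjusted limma threshold, beside 0.0467% of all genes, and 6 of 10 were lower in Rag2-/- tumors at an unadjusted p under 0.05 (Pecam1, Tek, Tie1, Vwf, Cdh5 and Esam), beside 9.16% of all genes. Because S46 was singled out for its high values in these members, leaving it out lowers their Rag2-/- means by construction. The members also vary together across the tumors, so the 6 are not separate results. Without both S41 and S46, 0 of 10 passed after adjustment, beside 0.0311% of all genes, and 5 of 10 at the unadjusted p, with Vwf no longer among them, beside 5.65%. In the 15 tumors of the source data, 0 of 10 passed after adjustment, beside 0.116% of all genes, and 3 of 10 (Pecam1, Tek and Esam) were lower at the unadjusted p, beside 11.1%. The median difference of the members was −0.44 without S46, −0.40 without S41 and S46, and −0.32 in the 15 tumors.

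Gene positions are those of GENCODE vM21 on build GRCm38. Pecam1 (chromosome 11, 106654217 to 106750628, minus strand) encodes PECAM1 (CD31), an adhesion protein of endothelial junctions that platelets and many leukocytes also carry. It ranged from 4.25 in S41 through a median of 4.57 to 6.26 in S46 in Rag2-/- tumors, and from 4.64 through 5.09 to 5.63 in Rag2+/- tumors. Of the 11 Rag2-/- tumors, 10 lay below the Rag2+/- median and 6 below the lowest Rag2+/- tumor, while S46 lay above all others. The difference was −0.46 ± 0.22 (SE), or a level 72.6% of that in Rag2+/- tumors on the scale with 0.1 added (n = 11 and 8, 95% interval −0.91 to −0.01, two-sided exact permutation p = 0.0513, limma adjusted p = 0.305). Without S46 the difference was −0.62 with an SD of 0.23 in place of 0.57 among the Rag2-/- tumors (exact permutation p = 2.74e-04, limma adjusted p = 0.184). In the 15 tumors it was −0.53 (exact permutation p = 0.00202, limma adjusted p = 0.207). The platelet and megakaryocyte markers, with a list mean of 0.13 ± 0.40 in Rag2-/- (SD, n = 11) and 0.31 ± 0.54 in Rag2+/- tumors (SD, n = 8), and the macrophage markers, with a mean of 6.92 ± 0.48 and 6.52 ± 0.55 (highest in S46, 8.20, and lowest in S56, 5.25), were measured in the same libraries, and their part in the Pecam1 values was not tested. The median difference of the macrophage markers was 0.42, and it was 0.28 without S46, 0.20 without S56 and 0.12 in the 15 tumors.

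Cdh5 (chromosome 8, 104101625 to 104144511, plus strand), which encodes the endothelial-restricted VE-cadherin, ran from 4.13 in S51 through a median of 4.71 to 6.09 in S46 in Rag2-/- tumors, and from 4.58 through 4.97 to 6.13 in S54 in Rag2+/- tumors. Each group thus had 1 tumor near the top of the range and the rest overlapped widely. The difference was −0.37 ± 0.25 (SE, 95% interval −0.88 to 0.15, two-sided exact permutation p = 0.171, n = 11 and 8). Without S46 it was −0.50 (exact permutation p = 0.0284, limma adjusted p = 0.304), and without S54 it was −0.22. In the 15 tumors it was −0.33 (exact permutation p = 0.171, limma adjusted p = 0.317).

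Esam (chromosome 9, 37528078 to 37538319, plus strand) encodes a tight-junction adhesion molecule of endothelial cells and platelets. Its Rag2-/- values went from 2.95 in S48 through a median of 3.59 to 5.08 in S46, and its Rag2+/- values from 3.36 through 4.03 to 4.5. In all, 3 Rag2-/- tumors lay below every Rag2+/- tumor. The difference of −0.28 ± 0.22 (SE) did not pass (95% interval −0.74 to 0.19, exact permutation p = 0.244), and was −0.41 without S46 (exact permutation p = 0.0266, limma adjusted p = 0.304) and −0.42 in the 15 tumors (exact permutation p = 0.0368, limma adjusted p = 0.218).

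Among the glycoproteins, Emcn (chromosome 3, 137341067 to 137432185, plus strand), for the surface sialomucin endomucin that is typical of venous and capillary endothelium, ran from 2.01 in S51 through a median of 3.14 to 3.82 in S46 in Rag2-/- tumors, and from 2.47 through 3.41 to 4.32 in Rag2+/- tumors. Here S46 was not extreme, and 2 Rag2+/- tumors were above it. The difference was −0.31 ± 0.23 (SE, 95% interval −0.78 to 0.17, two-sided exact permutation p = 0.207), and −0.38 without S46 (exact permutation p = 0.124). Other single tumors moved it further, to −0.45 without S52, −0.18 without S58 and −0.20 without S51, and it was −0.23 in the 15 tumors.

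Eng (chromosome 2, 32646595 to 32682669, plus strand) encodes endoglin, a co-receptor for ligands of the TGF-β family. Its values went from 4.02 in S41 through a median of 4.71 to 5.8 in S46 in Rag2-/- tumors, and from 4.38 through 4.76 to 5.29 in Rag2+/- tumors. It had the closest group medians of the 3 glycoproteins. The difference was −0.15 ± 0.20 (SE), with a 95% interval of −0.56 to 0.27 that leaves room for a change in either direction (exact permutation p = 0.49). It was −0.26 without S46 (exact permutation p = 0.134), −0.08 without S41, −0.10 without S52 and −0.19 in the 15 tumors.

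Vwf (chromosome 6, 125546774 to 125686679, plus strand), for von Willebrand factor, the clotting glycoprotein stored by endothelial cells and by platelets, had the widest range of the 10 genes. In Rag2-/- tumors it went from 0.48 in S43 through a median of 2.36 to 3.42 in S46, and in Rag2+/- tumors from 1.74 through 2.45 to 3.97 in S56. The Rag2-/- tumors were spread over this range, with 5 below the lowest Rag2+/- tumor although the group medians were close. The difference was −0.65 ± 0.37 (SE), a level 63.9% of that in Rag2+/- tumors (95% interval −1.42 to 0.13, exact permutation p = 0.117, limma adjusted p = 0.35). It was −0.80 without S46 (exact permutation p = 0.0418, limma adjusted p = 0.304) and −0.44 without S56. In the 15 tumors it was −0.55 (exact permutation p = 0.127, limma adjusted p = 0.271). Relative to the mean of Pecam1, Cdh5, Esam, Emcn, Eng and Tie1 in the same tumor, Vwf stood at −2.14 ± 0.72 in Rag2-/- and −1.81 ± 0.70 in Rag2+/- tumors (SD, log2).

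The means of both receptors of the Tie family were lower in Rag2-/- tumors by about the same amount, without passing the test. Tie1 (chromosome 4, 118471191 to 118490061, minus strand) ran from 2.33 in S41 through a median of 2.99 to 4.51 in S46 in Rag2-/- tumors, and from 2.80 through 3.30 to 4.07 in Rag2+/- tumors. Of the Rag2-/- tumors, 5 lay below every Rag2+/- tumor. Its difference was −0.33 ± 0.24 (SE, 95% interval −0.84 to 0.18, two-sided exact permutation p = 0.215), and −0.47 without S46 (exact permutation p = 0.0243, limma adjusted p = 0.304). It was −0.22 without S58 and −0.31 in the 15 tumors (exact permutation p = 0.136, limma adjusted p = 0.297).

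Tek (chromosome 4, 94739289 to 94874976, plus strand) ran from 1.46 in S41 through a median of 1.78 to 3.55 in S46 in Rag2-/- tumors, and from 1.65 through 2.27 to 3.12 in S56 in Rag2+/- tumors. Of 11 Rag2-/- tumors, 10 were below the Rag2+/- median, the same number as for Pecam1. The difference was −0.32 ± 0.24 (SE, 95% interval −0.81 to 0.18, exact permutation p = 0.217), −0.47 without S46 (exact permutation p = 0.0067, limma adjusted p = 0.304) and −0.33 in the 15 tumors (exact permutation p = 0.0337, limma adjusted p = 0.221). Leaving out S56, with the highest Rag2+/- value, gave −0.20. The difference between Tek and Tie1 within a tumor was −1.07 in Rag2-/- and −1.08 in Rag2+/- tumors, with medians of −1.07 and −0.74. The Rag2+/- tumors were split, with 3 of 8 (S54, S55 and S58, −1.46 to −2.06) below every Rag2-/- tumor, and the contrast was not tested.

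Angpt1 had the opposite sign to its receptor gene, and Angpt2 was close to 0. Angpt1 (chromosome 15, 42424723 to 42676977, minus strand) ran from 1.22 in S50 through a median of 2.15 to 2.60 in S46 in Rag2-/- tumors, and from 1.24 through 1.59 to 2.25 in Rag2+/- tumors. It was the only member with a higher mean in Rag2-/- tumors, 10 of 11 of which lay above the Rag2+/- median. The difference was 0.36 ± 0.18 (SE, 95% interval −0.02 to 0.74, two-sided exact permutation p = 0.0542, limma adjusted p = 0.317), and it was 0.29 to 0.44 with any 1 tumor left out. It did not rest on S46, without which it was 0.31 (exact permutation p = 0.0894), and it was 0.32 in the 15 tumors (exact permutation p = 0.1).

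Angpt2 (chromosome 8, 18690263 to 18741562, minus strand) ran from 1.5 in S43 through a median of 1.86 to 2.35 in S47 in Rag2-/- tumors, and from 1.17 through 1.93 to 3.0 in S55 in Rag2+/- tumors. The SD was 0.30 in Rag2-/- (n = 11) and 0.64 in Rag2+/- tumors (n = 8), and the Rag2+/- tumors spread to both sides of the Rag2-/- range. The difference was −0.08 ± 0.22 (SE, 95% interval −0.54 to 0.37, exact permutation p = 0.711), and its sign turned without S54 (0.02) or without S55 (0.06). It was −0.11 without S46 (exact permutation p = 0.629), −0.20 without S60 and −0.16 in the 15 tumors.

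Set against each other within a tumor, Angpt2 minus Angpt1 was −0.15 ± 0.42 in Rag2-/- tumors (SD, n = 11) and 0.29 ± 0.89 in Rag2+/- tumors (SD, n = 8). Angpt2 exceeded Angpt1 in 3 of 11 Rag2-/- and 5 of 8 Rag2+/- tumors. Angpt1 minus the mean of the 6 endothelial genes Pecam1, Cdh5, Esam, Emcn, Eng and Tie1 was −1.94 ± 0.49 in Rag2-/- and −2.61 ± 0.55 in Rag2+/- tumors, a difference of 0.67, and 3 Rag2-/- tumors were above every Rag2+/- tumor. For Angpt2 the same contrast was −2.09 ± 0.45 and −2.32 ± 0.60, a difference of 0.23. Without S46 the 3 differences were −0.42, 0.75 and 0.33, and in the 15 tumors −0.48, 0.65 and 0.17. The first was −0.28 without S55, and the last was 0.11 without S56 and 0.35 without S55. These contrasts combine members and are descriptions without a test.

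**Figure D2:**
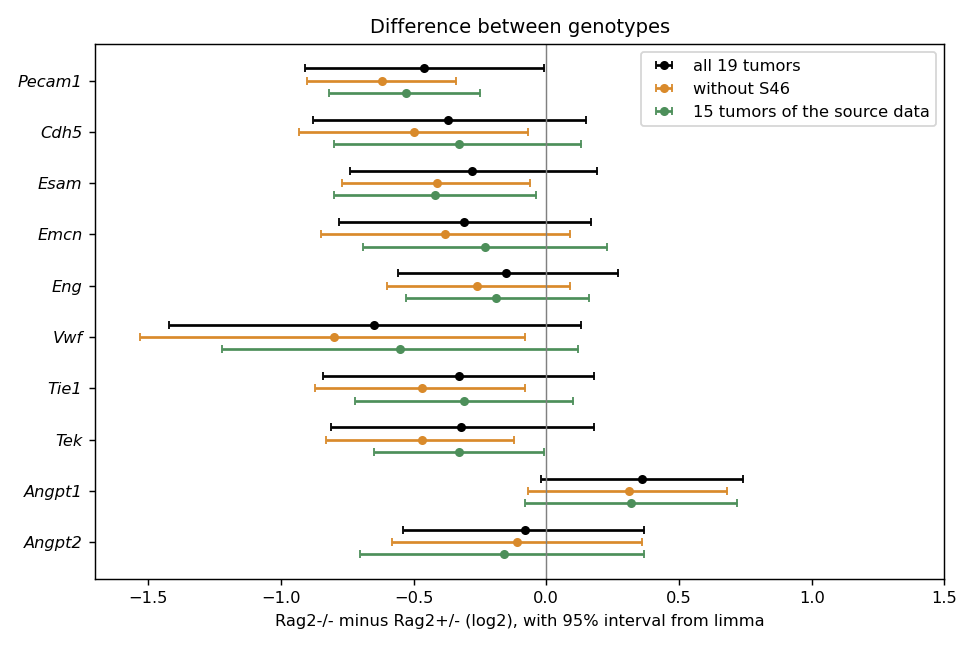
The horizontal axis is the mean of Rag2-/- minus that of Rag2+/- tumors in log2 units, with the 95% interval from limma, for all 19 tumors (black), without S46 (orange) and in the 15 tumors of the source data (green). Angpt1 alone lies to the right of 0, from 0.31 to 0.36, and the interval of Pecam1 excludes 0 in all 3 sets.

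Markers of the surrounding tissue were read in the same libraries. The skeletal muscle markers had a mean of 8.15 ± 2.02 in Rag2-/- (SD, n = 11) and 10.40 ± 2.44 in Rag2+/- tumors (SD, n = 8), with the highest Rag2-/- tumor S51 and the highest Rag2+/- tumor S56 (13.23), and 10 of the 12 markers were lower at an unadjusted limma p under 0.05, beside 9.56% of all genes, with 0 passing after adjustment. The 3 with the largest differences were Acta1 (−2.42), Myl1 (−2.41) and Ckm (−2.36). With the muscle mean as a covariate the member differences ranged from −0.53 for Emcn to 0.55 for Angpt1, Eng turned to 0.02, Vwf was −0.14 and Tek −0.16, and 0 of 10 passed after adjustment, beside 0.0156% of all genes. At an unadjusted p under 0.05, 2 of 10 passed there, Emcn lower and Angpt1 higher, beside 4.16% of all genes, and Pecam1 (−0.37) did not. Mice of both sexes were used, and with the Xist level as a covariate Pecam1 was −0.34, Vwf −0.36, Tie1 −0.22, Tek −0.18, Esam −0.17, Eng −0.02 and Angpt1 0.39, again with 0 of 10 passing, beside 0.0234% of all genes, and 0 of 10 at the unadjusted p, beside 7.52% of all genes.

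How the members varied with one another across the tumors was examined over all 45 pairs, with p-values adjusted over these pairs. On Pearson's r 19 pairs passed, all of them positive and all among the 28 pairs of the 8 genes other than the angiopoietins, whose r ran from 0.14 to 0.88 with a median of 0.68. Pairs with Angpt1 (r −0.46 to 0.38) and with Angpt2 (r −0.22 to 0.40) gave 0 of 9 each. Within Rag2-/- tumors the median r of the 28 pairs was 0.73 and within Rag2+/- tumors it was 0.40. Without S46, 13 pairs passed, and the median of the 28 pairs was 0.51 over all tumors and 0.43 within Rag2-/- tumors. In the 15 tumors 7 pairs passed, with a median of 0.47.

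The strongest pair was Pecam1 and Tek (r = 0.88, permutation p = 1e-05, the smallest that the permutations can give, adjusted p = 3.00e-04; rho = 0.79, permutation p = 1.20e-04). Without the 2 tumors farthest from the median of Pecam1, S46 and S56, r was 0.70. It was 0.99 within Rag2-/- and 0.46 within Rag2+/- tumors. Cdh5 and Tie1 gave r = 0.86 (permutation p = 4.00e-05, adjusted p = 4.50e-04; rho = 0.85, permutation p = 1e-05), which was 0.92 without S54 and S46, the tumors farthest from the median of Cdh5, and 0.95 and 0.69 within the genotypes. That pair therefore did not rest on its extreme tumors.

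Eng, Emcn and Tek each passed with Tie1 (r = 0.61, 0.67 and 0.69, permutation p adjusted over the 45 pairs = 0.0165, 0.00594 and 0.00594, rho = 0.44, 0.74 and 0.53), and Eng also with Pecam1 (r = 0.78, adjusted p = 6.19e-04, rho = 0.65). Of these 4 pairs, Emcn with Tie1 and Eng with Pecam1 also passed without S46. On rho, Eng and Tek did not pass with Tie1 (adjusted permutation p = 0.144 and 0.0567). Among the other pairs, Eng went with Vwf (r = 0.83, permutation p = 2.00e-05, adjusted p = 3.00e-04; rho = 0.78, permutation p = 2.0e-04; 0.79 without S46 and S41) and with Tek (r = 0.72, permutation p = 5.60e-04, adjusted p = 0.00229; rho = 0.55, permutation p = 0.0161; 0.46 without S46 and S41). Emcn went with Cdh5 (r = 0.77, permutation p = 1.00e-04, adjusted p = 6.19e-04; rho = 0.81, permutation p = 6.00e-05; 0.77 without S54 and S46). The pairs Emcn and Eng (r = 0.14, permutation p = 0.556; rho = 0.18, permutation p = 0.461), Emcn and Vwf (r = 0.18, permutation p = 0.471; rho = 0.25, permutation p = 0.304) and Emcn and Tek (r = 0.24, permutation p = 0.305; rho = 0.21, permutation p = 0.391) did not pass. Without S46, Tek and Eng no longer passed (r = 0.54, permutation p = 0.0181, adjusted p = 0.0583; rho = 0.47, permutation p = 0.0508), and r was then 0.41 within Rag2-/- tumors, against 0.79 with S46, and 0.49 within Rag2+/- tumors. The difference between these correlations and those of Emcn was not tested.

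Angpt1 had its lowest correlation with Emcn (r = −0.46, permutation p = 0.0479, adjusted p = 0.0898; rho = −0.44, permutation p = 0.0639; −0.13 without S51 and S58). Without S46 this pair was the one negative pair to pass (r = −0.64, permutation p = 0.00285, adjusted p = 0.0128; rho = −0.62, permutation p = 0.00728), and it was −0.40 when S51 and S58 were left out too, so that it rests in part on those tumors. Angpt1 and Angpt2 gave r = −0.22 (permutation p = 0.367; rho = −0.14, permutation p = 0.555), with 0.30 within Rag2-/- and −0.62 within Rag2+/- tumors.

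**Figure D3:**
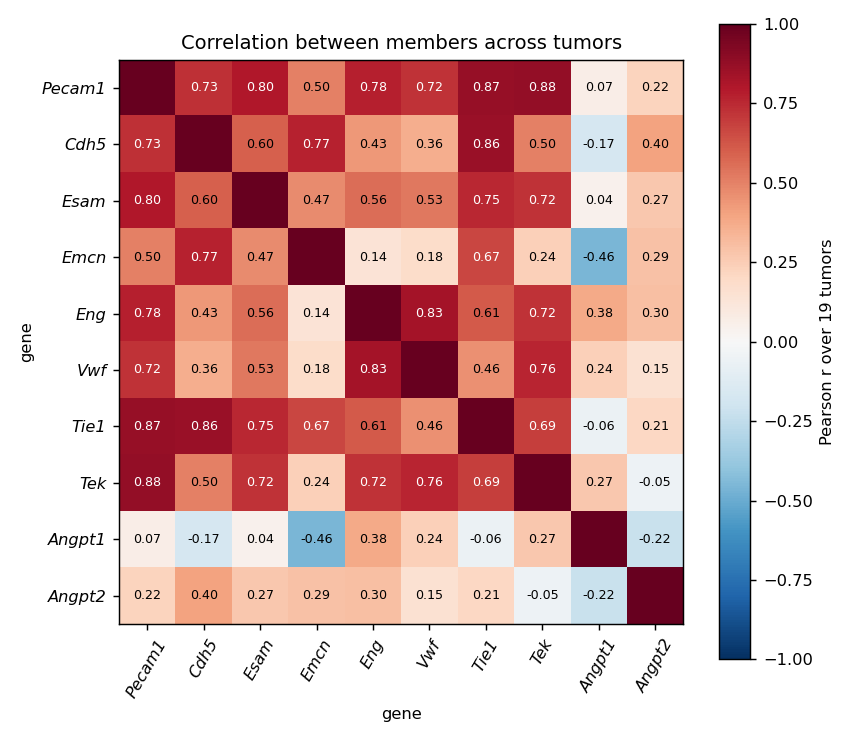
The grid gives Pearson's r over the 19 tumors for each pair of genes, coloured from −1 (blue) to 1 (red). The 8 genes other than the angiopoietins form the red block, with r from 0.14 to 0.88, and the rows of Angpt1 and Angpt2 stay between −0.46 and 0.40.

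**Figure D4:**
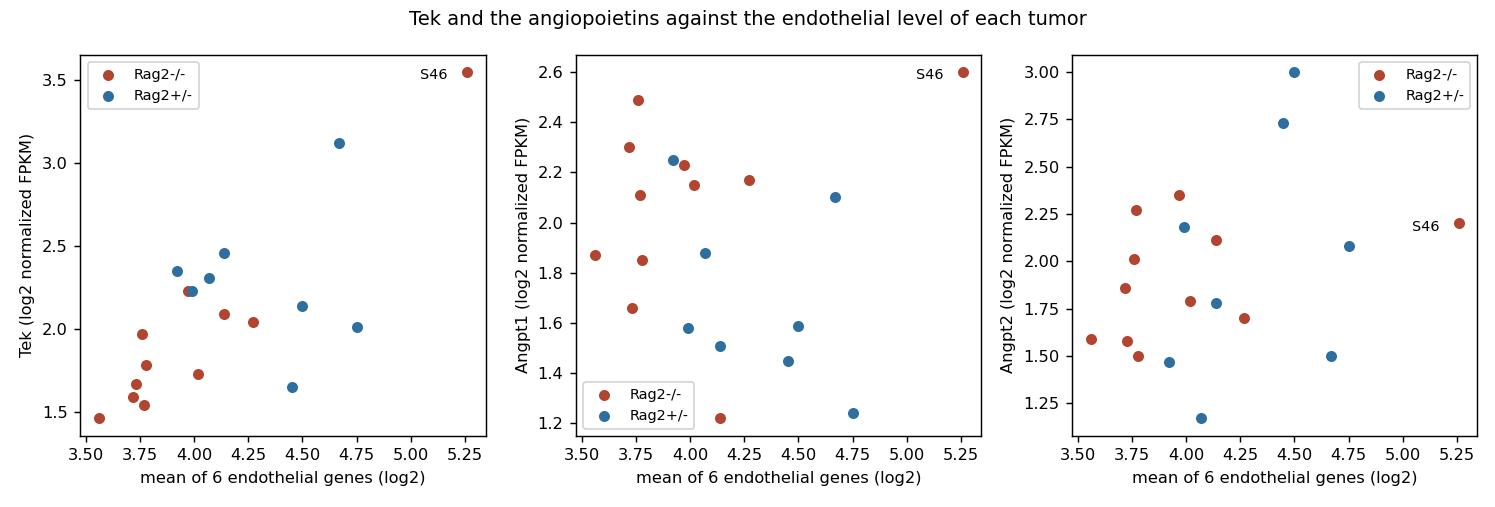
The horizontal axis of each panel is the mean log2 value of Pecam1, Cdh5, Esam, Emcn, Eng and Tie1 in a tumor (3.56 to 5.26), and the vertical axes are the log2 values of Tek, Angpt1 and Angpt2 in Rag2-/- (red) and Rag2+/- (blue) tumors. S46 is at the right edge of all panels and has the highest Tek (3.55), and among the Rag2+/- tumors the r of Tek was −0.31 with Cdh5, −0.29 with Emcn, 0.05 with Esam and 0.09 with Tie1, but 0.46 with Pecam1 and 0.49 with Eng.

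The members were also set against 3 marker lists of neighbouring cells, in 30 relations adjusted together, and passing was read on Pearson's r unless rho is named. The pericyte markers, with a list mean of 2.57 ± 0.57 in Rag2-/- (SD, n = 11; 1.88 to 3.80) and 2.87 ± 0.39 in Rag2+/- tumors (SD, n = 8; 2.39 to 3.70), passed with 7 of the 10 members. Tek was the closest (r = 0.91, permutation p = 1e-05, the smallest the permutations can give, adjusted p = 1.50e-04; rho = 0.85, permutation p = 2.00e-05), with r = 0.88 within Rag2-/-, 0.93 within Rag2+/- and 0.80 without S46 and S56. Pecam1 (r = 0.85, permutation p = 1e-05; rho = 0.74, permutation p = 5.40e-04) and Vwf (r = 0.79, permutation p = 7.00e-05; rho = 0.63, permutation p = 0.0049) followed, with 0.70 and 0.80 when the 2 extreme tumors of each were left out. Emcn, Angpt1 and Angpt2 did not pass (r = 0.37, 0.19 and 0.02). Without S46, 5 members passed, and Cdh5 (r = 0.44, adjusted p = 0.146) and Esam (r = 0.54, adjusted p = 0.0537) no longer did. On rho, Cdh5 and Esam did not pass in the 19 tumors either (adjusted permutation p = 0.0883 for each). Without S46, only Pecam1 (adjusted permutation p = 0.0184) and Tek (0.0018) passed on rho.

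Vwf was the one member related to the skeletal muscle markers (r = 0.66, permutation p = 0.00205, adjusted p = 0.00879; rho = 0.59, permutation p = 0.00795), with 0.58 within Rag2-/-, 0.67 within Rag2+/- and 0.59 without S43 and S41. S46 lay off this relation, with a muscle mean of 7.41 and a Vwf of 3.42. Without S46 the relation of Vwf was r = 0.78, and Tek (0.68), Eng (0.64) and Pecam1 (0.61) passed with it, of which Eng did not pass on rho (adjusted permutation p = 0.0644). The macrophage markers passed with 0 of 10 members, and without S46 with 1, Tek (r = −0.64, permutation p = 0.013, adjusted p = 0.039; rho = −0.25, permutation p = 0.319), where r was −0.09 once the 2 tumors with extreme Tek values were left out, so that it rests on them. In the 15 tumors 2 of the 30 relations passed, 1 with pericyte and 1 with muscle markers.

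**Figure D5:**
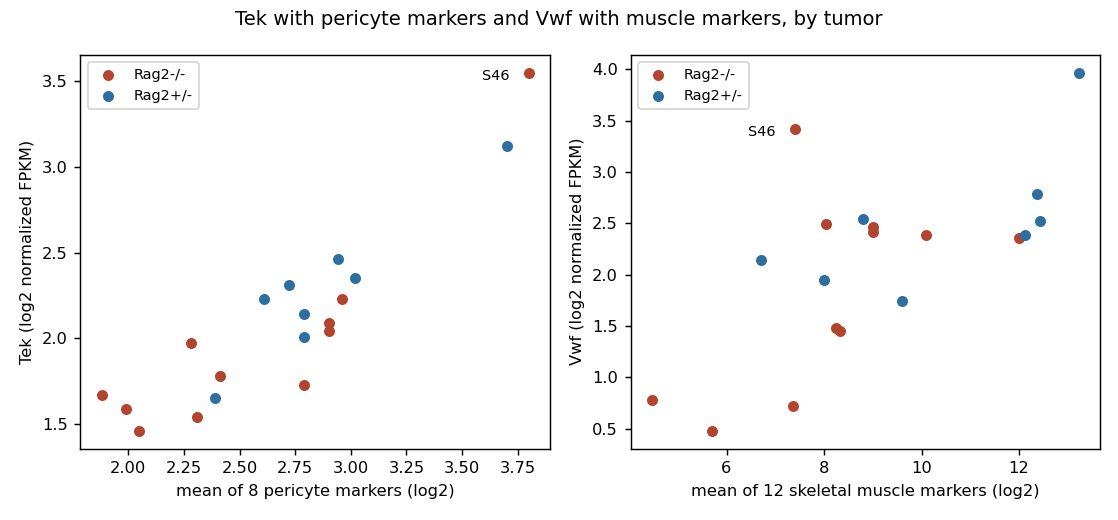
The left panel plots Tek against the mean of 8 pericyte markers and the right panel Vwf against the mean of 12 skeletal muscle markers, in log2 normalized FPKM, for Rag2-/- (red) and Rag2+/- (blue) tumors. Tek rises with the pericyte mean in both genotypes (r = 0.88 and 0.93), and Vwf with the muscle mean (0.58 and 0.67), with S46 above the other tumors of its muscle level.

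Other genes of the vessel wall and of the signalling around the Tie receptors were counted in the same limma fit. Of 25 other endothelial genes, 0 passed after adjustment, 16 had a lower and 9 a higher mean in Rag2-/- tumors, and the median difference was −0.18. That median was −0.28 without S46, −0.10 without S56, −0.06 without S58 and −0.17 in the 15 tumors. The largest differences were 0.76 ± 1.10 (SE) for Esm1, a tip-cell proteoglycan that was lowest in S46 (−1.44) and differed by 1.34 without it, −0.60 ± 0.38 for the arterial transcription factor Sox17 and −0.58 ± 0.27 for Mmrn2, an endothelial matrix protein. Mmrn2 was the only 1 of the 25 under an unadjusted p of 0.05, beside 16.3% of all genes. S46 was the highest Rag2-/- tumor for 18 of the 25, as for the members. Without S46, 6 of the 25 were lower at an unadjusted p under 0.05, beside 9.16% of all genes, and 0 higher. In the 15 tumors these genes went both ways at that p. There 4 were lower, beside 11.1% of all genes, while Clec14a (0.57), Efnb2 (0.67) and Cd34 (0.49) were higher.

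In the angiopoietin-Tie pathway, 0 of the 8 genes tested passed, adjusted or not, in the 19 tumors, and the fourth ligand gene Angpt4 was below the filter, at −0.66 ± 0.59 in Rag2-/- and −1.0 ± 1.17 in Rag2+/- tumors (SD). The gene of the receptor phosphatase VE-PTP, Ptprb, which acts on TIE2, had −0.50 ± 0.32 (SE) and the integrin subunit Itgav 0.40 ± 0.39. At an unadjusted limma p under 0.05, Ptprb was lower without S46 (−0.70), beside 9.16% of all genes, and Foxo1 (−0.50) and Dok2 (−0.65) were lower in the 15 tumors, beside 11.1%. Of 10 genes of the VEGF axis, 0 passed after adjustment. Flt1, which encodes VEGF receptor 1, was −0.75 ± 0.25 (SE, limma adjusted p = 0.301, two-sided exact permutation p = 0.0112), the ligand gene Vegfb −0.72 ± 0.36 (SE) and the ligand gene Vegfd 0.71 ± 0.21 (limma adjusted p = 0.301, exact permutation p = 0.00224). With Nrp2 (0.55 ± 0.21), Flt1 and Vegfd were the 3 under an unadjusted limma p of 0.05, beside 16.3% of all genes, while Kdr, for the main VEGF receptor of endothelial cells, differed by −0.10 ± 0.22. In the 15 tumors of the source data Flt1 did pass, with a difference of −0.85 (limma adjusted p = 0.0254, exact permutation p = 1.55e-04). There Vegfd was 0.59, and Nrp2 was 0.35 and no longer under an unadjusted limma p of 0.05 (0.07).

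Endothelial activation genes gave 0 of 6 after adjustment, and the 3 largest differences were 0.57 ± 0.27 (SE) for the adhesion molecule Vcam1, −0.52 ± 0.46 for Ackr1 and 0.43 ± 0.36 for Sele. Of the 6, 4 had a higher and 2 a lower mean, and Vcam1 was 0.30 in the 15 tumors. Lymphatic endothelial genes gave 0 of 4 tested, with 0.68 ± 0.82 for Ccl21a, 0.30 ± 0.48 for Reln and 0.28 ± 0.37 for Pdpn (1.24, 0.68 and 0.24 in the 15 tumors), and the defining factor Prox1 was at −1.0 ± 0.73 and −0.93 ± 0.90 (SD) in the groups. Pericyte markers gave 0 of 8, with −1.44 ± 0.61 (SE) for Abcc9, −0.57 ± 0.37 for Rgs5 and −0.46 ± 0.27 for Kcnj8, and 6 had a lower and 2, Cspg4 (0.27) and Pdgfrb (0.25), a higher mean. Abcc9 was highest in S51 and S56, the tumors of each genotype with the highest skeletal muscle mean. Smooth muscle markers gave 0 of 5, with 0.65 ± 0.72 for Cnn1, 0.42 ± 0.54 for Tagln and 0.25 ± 0.59 for Acta2 (1.01, 0.75 and 0.62 in the 15 tumors), while Myh11 (−0.23) and Lmod1 (−0.07) had the opposite sign.

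Macrophage markers gave 0 of 7, with 0.71 ± 0.23 (SE) for Fcgr1, 0.59 ± 0.34 for Mrc1 and 0.43 ± 0.29 for Adgre1. Without S46 these were 0.68, 0.41 and 0.27, and in the 15 tumors 0.37, 0.30 and 0.06. Platelet and megakaryocyte markers gave 0 of 3 tested, with −0.52 ± 0.79 for Ppbp. Gp1ba and the defining genes Gp9 and Gp5 were below the filter, at means of −1.19, −2.93 and −2.85 in Rag2-/- and −0.68, −2.20 and −3.03 in Rag2+/- tumors. Adipocyte markers gave 0 of 3, with 1.30 ± 1.52 for Adipoq and 0.24 ± 1.67 for Cidec, and Lep was below the filter with a difference of 0.74. These values rest on S46 (8.68, 8.75 and 7.34), without which they were 0.57, −0.56 and −0.05, and in the 15 tumors Adipoq was −0.23. Of the T cell markers 2 of 7 were above the filter and Cd2 was lower in Rag2-/- tumors, with a difference of −2.47 ± 0.42 (SE, limma adjusted p = 0.0302). It was the only call in these lists, and leaving out 1 tumor ended it in 12 of 19 fits.

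The genes whose values over the 19 tumors were most like those of 4 chosen members were read from 12789 genes by Pearson's r, as a description. For Cdh5 they were Myct1 (0.77), Kdr (0.77), Rapgef3 (0.76), Sox18 (0.75) and Gpr4 (0.75), and all kept an r of 0.66 or more without S46. For Vwf they were Sh3bp5 (0.88), Pxmp4 (0.85), Cbfa2t3 (0.84), the antisense transcript Prss23os (0.84), whose reads cannot be told apart from those of an overlapping gene without strand, and Acot11 (0.84). The list of Cdh5 contains the endothelial receptor Kdr and the endothelial transcription factor Sox18, while no gene of the endothelial lists is among the 5 of Vwf.

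For Angpt1 the closest gene was Ncr1, which encodes the NK cell receptor NKp46, with r = 0.78, and 0.68 within Rag2-/- and 0.85 within Rag2+/- tumors. Ncr1 had a mean of 0.98 in Rag2-/- and −0.35 in Rag2+/- tumors. It was followed by Net1 (0.69), Bace2 (0.68), Ggt5 (0.67) and Slc4a4 (0.66). For Angpt2 the closest were Prdm1 (0.79), Top1 (0.73), Entpd1 (0.72), Itch (0.68) and Mmp10 (0.68). Their r within Rag2+/- tumors was 0.85 to 0.92 and within Rag2-/- tumors 0.18 to 0.58, so these likenesses came mostly from the 8 Rag2+/- tumors. The values of the 19 tumors share library preparation and normalization, and the 5 genes are the top of a ranking.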

How the data were processed

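RNA of 19 tumors was sequenced as paired 150-base reads (NEBNext Ultra II). The authors deposited log2 values of upper-quartile normalized FPKM with 0.1 added. The methods of the study name Omicsoft Sequence Aligner (at most 2 mismatches, mouse B38, Ensembl R86), and the submitters' processing notes name Trimmomatic 0.36, STAR, HTSeq and mm10, which the methods also describe, in another RNA pipeline. Depth was estimated from the steps between low values (70.6% to 89.7% whole within 0.05 of a fragment), too few for a count test.

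Genotypes were compared with limma 3.58.1 (R 4.3.3, intensity trend) on 12826 genes with a mean log2 value above 0 and Benjamini-Hochberg adjustment at 0.05. Single members were tested by a two-sided exact permutation test over all 75582 splits (smallest p 1.32e-05), and correlations by 100000 permutations. Both were computed with numpy 2.4.6, with ranks from scipy 1.17.1. The code was tested on simulated data. Each library is 1 tumor, named by library code, and the labels give no litter or batch.

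The members and gene lists were chosen with earlier results of these data known. Named genes were all members, the called genes of each list or otherwise its 3 largest differences, and the 5 genes most correlated with Cdh5, Angpt1, Angpt2 and Vwf. Kdr, Nrp2, Foxo1, Dok2, Clec14a, Efnb2, Cd34, Cspg4, Pdgfrb, Myh11, Lmod1, Prox1, Gp5 and Cd3e were named in addition, after their values were seen. Alternatives were pseudocounts of 1 and 0.01, quantile normalization, a median shift, no intensity trend, Xist or the muscle mean as a covariate, other filters, the 15 tumors of the source data, and tumors left out.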

Additional observations from a re-analysis of the deposited data

Results flagged for a closer look

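Single tumors far from their group were looked for among the 8 Rag2+/- tumors only, since Dixon's test as used here is limited to 10 samples. The 11 Rag2-/- tumors, in which S46 stood apart (Pecam1 6.26, the next tumor 4.84), were not tested. Vwf in the Rag2+/- tumor S56 was 3.97, and its gap to the next Rag2+/- tumor was 0.53 of the range of the 8 tumors, just past Dixon's 95% limit, which chance passes in about 5% of groups. The same tumor had the highest skeletal muscle mean of all 19 (13.23), the lowest macrophage mean (5.25) and the highest Rag2+/- pericyte mean (3.70). Without S56 the genotype difference of Vwf was −0.44, against −0.65 with it. The part of muscle in this value was not tested.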

How the results depend on the processing

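Over 298 member differences recomputed under alternatives, 295 kept their direction, 0 gained a call and the lowest adjusted limma p was 0.165. The 3 that reversed were Angpt2 without S54 (0.02) or S55 (0.06) with −0.20 to 0.06 over all tumors left out in turn, and Eng with the muscle mean as a covariate (0.02). The count of members called was 0 under every alternative run, and with genes above a mean of 2 Angpt1 and Angpt2 were not tested. Genes called over the table were 4 and became 15 in the 15 tumors of the source data, 2 with the muscle covariate, 26 with no filter, 0 with the filter at 2, and 3 to 7 with 1 tumor left out, the 7 without S51 or without S56. List genes called were 1 and became 2 (Cd2 and Flt1) in the 15 tumors, 6 with no filter, 0 with the Xist covariate, the muscle covariate, the filter at 2 or without S41 and S46, and 0 to 1 with 1 tumor left out. The causes were not tested. Member pairs that passed on Pearson's r were 19, and 7 in the 15 tumors and 13 without S46. Relations to marker lists that passed on Pearson's r were 8, and 2 in the 15 tumors and 10 without S46, where pericyte relations went from 7 to 5 and muscle relations from 1 to 4. The sample titles carry a further number for each tumor but name no litter. Littermates could therefore not be matched, and no paired analysis was run. S41 had 49 to 365 estimated fragments per member, and the part of counting error in the spread was not tested.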
